A study of Mus musculus with 20 samples.

Results

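The 6 genes Haus5, Cdca2, Ip6k2, Rgs11, Rsrp1 and Sulf2 were followed across 20 bulk RNA-seq libraries of sorted mouse keratinocytes, as rows of a table of 25719 genes matched by symbol. All 6 symbols were found once, and all 6 were among the 12424 genes that passed a filter on low counts. They had been picked from the same libraries because their genotype effect was lower in mice injected with tamoxifen. Haus5, Cdca2, Ip6k2, Rgs11 and Rsrp1 were taken from the comparison of knockout with control after injection, and Haus5 and Sulf2 from the interaction of genotype and route. For the comparison after injection, the rule also required a log2 fold change of at least 1 in size and groups that did not overlap. Values of those contrasts, and of any contrast that shares their libraries, are therefore given as descriptions with no test.

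Each of 4 groups had 5 mice, and all mice carried Cyp11b1 L2/L2, the floxed gene for the enzyme that completes corticosterone synthesis. Conditional knockout mice (cKO) also carried K14-CreERTam, a tamoxifen-activated Cre recombinase under the keratin 14 promoter, which acts in basal keratinocytes, and controls (fl_ctrl) were littermates without Cre. Tamoxifen was given to cKO and controls alike on 5 days, either on ear (20 µl) and back skin (100 µl), here called topical, or injected into the peritoneum (100 µl at 10 mg/ml), called systemic. Keratinocytes of ear and dorsal skin were sorted on day 6, and RNA came from 2 M cells per sample. The labels used here state no age. Nothing in them ties a number in a sample name to a litter or a day, and the mice are taken as the replicates.

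Haus5 is a subunit of augmin (the HAUS complex), which binds spindle microtubules and recruits gamma-tubulin so that new microtubules branch from them. Cdca2, also called Repo-Man, brings protein phosphatase 1 to chromatin as cells leave mitosis. Ip6k2 is an inositol hexakisphosphate kinase, which makes inositol pyrophosphates and has been linked to apoptosis. Rgs11 belongs to the R7 family of regulators of G protein signaling, which speed GTP hydrolysis by Gi and Go subunits and pair with the subunit Gnb5. Rsrp1 encodes a small nuclear protein rich in arginine and serine, a composition typical of splicing factors. Sulf2 is an extracellular sulfatase that trims 6-O-sulfates from heparan sulfate and so alters how that polymer binds growth factors. The genes share no pathway as named by these roles.

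The 6 genes lie on different chromosomes. In GENCODE M21 on build GRCm38, the build named in the submitters' processing notes, Haus5 (ENSMUSG00000078762) is at chr7:30653711-30664994 on the minus strand and Cdca2 (ENSMUSG00000048922) at chr14:67676331-67715841 on the minus strand. Ip6k2 (ENSMUSG00000032599) is at chr9:108783796-108806337 and Rgs11 (ENSMUSG00000024186) at chr17:26202951-26211324, both on the plus strand. Rsrp1 (ENSMUSG00000037266) is at chr4:134923592-134927671 on the plus strand, and Sulf2 (ENSMUSG00000006800) at chr2:166073089-166155663 on the minus strand. Rsrp1 is short, with a span of 4080 bp that exceeds only 11.1% of tested genes, and Sulf2 is long, with 82575 bp, above 84.7%.

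Each of the 6 genes has at least 1 transcript model annotated as a retained intron, from 1 in Cdca2 and Rsrp1 to 8 of 11 models in Rgs11. Of the other 12399 tested genes found in the annotation, 56.6% have such a model, so the feature is common. Counts per gene do not show which transcript was present. The annotation also places neighbours on these exons, which limits how reads can be assigned. The same-strand model Gm21982 covers 56.5% of the exonic bases of Haus5, so the Haus5 count is uncertain, and Gm21982 was not analysed here. Exons of Arhgdig on the opposite strand cover 3.28% of the exonic bases of Rgs11, and those of Ncoa3 cover 2.62% of Sulf2. The strand setting of the counting is not given in the sources used here, so reads of those pairs cannot be told apart where they overlap.

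Promoter sequence is shown for the 3 matched genes that were high in the same libraries (Haus5, Ip6k2 and Rsrp1) and for Sulf2, which was not, so that their upstream bases can be compared. RefSeq promoters on GRCm38.p6 were matched for 4 of the 6 genes, while Cdca2 and Rgs11 had no entry. Of 2 starts listed for Ip6k2, the one at the gene's annotated 5′ end is shown. The bases end before the first annotated exon base, and capitals mark 7 motifs searched on both strands. AGAACA is a half-site of the glucocorticoid receptor. TTTGAA is the cell cycle homology region of mitotic genes. TTGGCGC is a form of the E2F site, and another form searched is TTCCCGC. The CCAAT box, the GC box with the letters GGGCGG, and the E-box with the letters CACGTG were searched too.
Haus5, chr7:30664995-30665244, minus strand: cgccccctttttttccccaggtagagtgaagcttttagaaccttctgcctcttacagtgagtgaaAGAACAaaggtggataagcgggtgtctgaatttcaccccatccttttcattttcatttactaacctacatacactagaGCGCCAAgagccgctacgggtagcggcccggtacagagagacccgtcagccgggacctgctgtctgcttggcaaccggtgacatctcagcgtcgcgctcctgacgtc
Ip6k2, chr9:108783562-108783795, plus strand: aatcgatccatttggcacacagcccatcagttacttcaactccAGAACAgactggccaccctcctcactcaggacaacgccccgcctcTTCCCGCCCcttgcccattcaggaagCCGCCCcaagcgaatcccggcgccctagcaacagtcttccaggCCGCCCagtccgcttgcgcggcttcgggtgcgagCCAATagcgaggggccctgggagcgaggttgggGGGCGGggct
Rsrp1, chr4:134923375-134923591, plus strand: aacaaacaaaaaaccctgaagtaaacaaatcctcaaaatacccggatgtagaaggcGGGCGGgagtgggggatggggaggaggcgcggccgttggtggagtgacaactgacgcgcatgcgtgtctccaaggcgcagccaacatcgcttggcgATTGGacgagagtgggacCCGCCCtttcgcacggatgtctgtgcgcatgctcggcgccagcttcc
Sulf2, chr2:166155684-166155933, minus strand: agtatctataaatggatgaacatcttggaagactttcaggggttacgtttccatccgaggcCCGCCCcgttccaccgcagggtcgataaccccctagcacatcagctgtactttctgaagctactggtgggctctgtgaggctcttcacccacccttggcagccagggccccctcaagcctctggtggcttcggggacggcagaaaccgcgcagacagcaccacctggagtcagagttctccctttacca
No motif of the 7 occurs in the windows of all 3 genes that were high together. AGAACA occurs once upstream of Haus5 and once upstream of Ip6k2, and 16.1% of 32851 promoter windows of 250 bases hold it. The GC box occurs 4 times upstream of Ip6k2, where 1 copy overlaps TTCCCGC, 2 times upstream of Rsrp1 and once upstream of Sulf2, against 32.7% of windows with at least 1. CCAAT is present upstream of Ip6k2 and Rsrp1 (33.8% of windows), TTGGCGC upstream of Haus5 (1.97%) and TTCCCGC upstream of Ip6k2 (3.82%). TTTGAA (5252 windows) and CACGTG (6.02%) are in none of the 4 windows. A match is only a run of letters and not evidence of binding.

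Library totals ran from 11.6 to 50.1 M counts. Summed markers of keratinocytes (Krt5, Krt14, Krt1, Krt10, Trp63, Dsp and Cdh1) took between 71500 and 105000 CPM (read counts scaled to the library total) in every library. The lists for leukocytes, fibroblasts, melanocytes, endothelium, muscle, and nerve reached at most 35.4 CPM. The leukocyte list summed to 6.17 to 26.3 CPM in systemic controls, 14.3 to 30.6 in systemic cKO and at most 12.1 in topical mice. Melanocyte markers summed to 7.25 to 35.4 CPM in systemic controls and to at most 12.7 in the other groups. Fibroblast markers reached 32 CPM in topical cKO, 20.8 in systemic controls, 9.88 in topical controls and 6.56 in systemic cKO. The part of these lists in the results was not tested. Y-linked transcripts marked 3 topical control, 2 topical cKO, 3 systemic control and 2 systemic cKO mice as male. Summed CPM of 12 predicted genes with satellite-like sequence stayed between 0.839 and 42.5 in 14 libraries. In the 6 others, the 5 systemic controls and systemic cKO 2, it lay between 79.4 and 37287. In bulk RNA, fewer cells of a kind and less RNA per cell cannot be told apart. Levels of the 6 genes below are CPM with TMM library scaling, and differences are log2 fold changes with standard errors (SE).

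Rsrp1 was the most abundant of the 6 genes per kilobase of exon in all 4 groups, with a mean of 124.6 CPM per kb in systemic controls against 3.44 for Ip6k2, the next. In systemic controls 1, 3, 4, 5 and 6, Rsrp1 was at 493.3, 462, 355, 420.2 and 357 CPM. Systemic cKO 2, 4, 5, 6 and 7 were at 349, 109, 129, 89.1 and 173 CPM. The groups did not overlap, a condition of the choice that 0.918% of tested genes met. Systemic cKO 2 lay just under the lowest control, whereas the other 4 knockouts averaged 125 ± 36.05 CPM (SD, n = 4). Topical controls 1, 3, 5, 6 and 7 had 114, 95.7, 84.0, 112 and 140.1 CPM. Topical cKO 2, 3, 4, 5 and 7 had 129, 86.7, 78.9, 82.6 and 44.5 CPM. Both topical groups overlapped each other and lay below every systemic control, as topical controls did in 7.54% of tested genes and topical cKO in 6.62%.

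Ip6k2 had the tightest systemic controls of the 6 genes, with a coefficient of variation of 11.04%. Its level there was 12.6, 16.1, 15.1, 12.9 and 13.2 CPM in mice 1, 3, 4, 5 and 6. In systemic cKO 2, 4, 5, 6 and 7 it was 11.98, 4.57, 4.95, 4.11 and 7.002 CPM. Again systemic cKO 2 sat next to the controls, and systemic cKO 7 was the highest of the remaining 4. Topical controls held 4.19, 4.94, 3.75, 3.57 and 3.73 CPM, and topical cKO held 3.92, 5.42, 4.08, 4.85 and 4.62 CPM. No topical value exceeded 5.42 CPM, and 3 of the 5 systemic knockouts lay within the topical range.

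Rgs11 spanned the widest relative range. It was at 13.2, 13.4, 9.55, 8.15 and 10.7 CPM in systemic controls and at 8.10, 1.22, 2.21, 1.52 and 3.56 CPM in systemic cKO 2, 4, 5, 6 and 7. Systemic cKO 2 all but reached the lowest systemic control, and the other 4 knockouts overlapped the topical groups or lay just above them. In topical controls it was at 2.37, 0.526, 0.683, 2.14 and 1.66 CPM, and in topical cKO at 1.37, 1.96, 1.23, 1.1999 and 1.05 CPM. The lowest Rgs11 count was 10 reads, with an exact Poisson 95% interval of 4.795 to 18.4 that covers counting error only. Arhgdig, whose exons overlap Rgs11 in part, was at 0.829 ± 0.316 CPM in systemic controls and 0.204 ± 0.137 CPM in topical controls (SD, n = 5 each).

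Cdca2 had counts of 26 to 308 per library. Systemic controls 1, 3, 4, 5 and 6 were at 5.81, 8.84, 6.19, 5.86 and 7.48 CPM, and systemic cKO 2, 4, 5, 6 and 7 at 4.84, 2.13, 1.79, 1.96 and 3.81 CPM. Topical controls had 2.12, 2.84, 2.59, 1.86 and 2.14 CPM and topical cKO 2.00, 2.65, 2.9997, 2.22 and 2.70 CPM. Systemic cKO 2 and 7 exceeded every topical library, and the other 3 knockouts lay within the topical range or just under it.

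Haus5 had counts of 45 to 398 per library, and its exons are shared in part with another model, as given above. Its systemic controls were at 6.13, 9.48, 8.56, 7.65 and 9.67 CPM, and systemic cKO 2, 4, 5, 6 and 7 at 5.99, 3.01, 3.37, 2.97 and 4.38 CPM. Topical controls were at 3.43, 2.79, 3.07, 3.57 and 4.44 CPM and topical cKO at 4.82, 3.98, 3.77, 5.03 and 4.36 CPM. Systemic cKO 2 was again just under the lowest systemic control, and the topical groups overlapped.

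Sulf2 was not highest in systemic controls, unlike the other 5 genes. Topical cKO 2, 3, 4, 5 and 7 had the highest group mean, with 5.33, 6.17, 6.61, 5.08 and 9.06 CPM, against 3.18, 3.52, 4.03, 2.999 and 2.62 CPM in topical controls. Systemic controls were at 6.45, 4.15, 6.58, 5.15 and 3.69 CPM, and systemic cKO 2, 4, 5, 6 and 7 at 3.17, 2.71, 2.92, 3.98 and 5.002 CPM. The topical groups did not overlap, and 0.845% of tested genes likewise had every topical cKO above every topical control. Topical cKO also lay above every systemic cKO, as in 3.32% of tested genes. The systemic groups did overlap, and systemic cKO 2 was the median of the 5 knockouts here. Sulf1, the other member of the family, did not pass the filter, with means of 0.0877 to 0.205 CPM. Ncoa3, whose exons overlap Sulf2 in part, was at 27.9 ± 4.07 CPM in systemic controls and 19.9 ± 3.39 in systemic cKO. In topical controls it was at 16.9 ± 2.39 CPM and in topical cKO at 15.1 ± 1.18 CPM (SD, n = 5 each). Its log2 fold change was 0.73 between routes in controls and -0.49 between genotypes after injection.

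**Figure D1:**
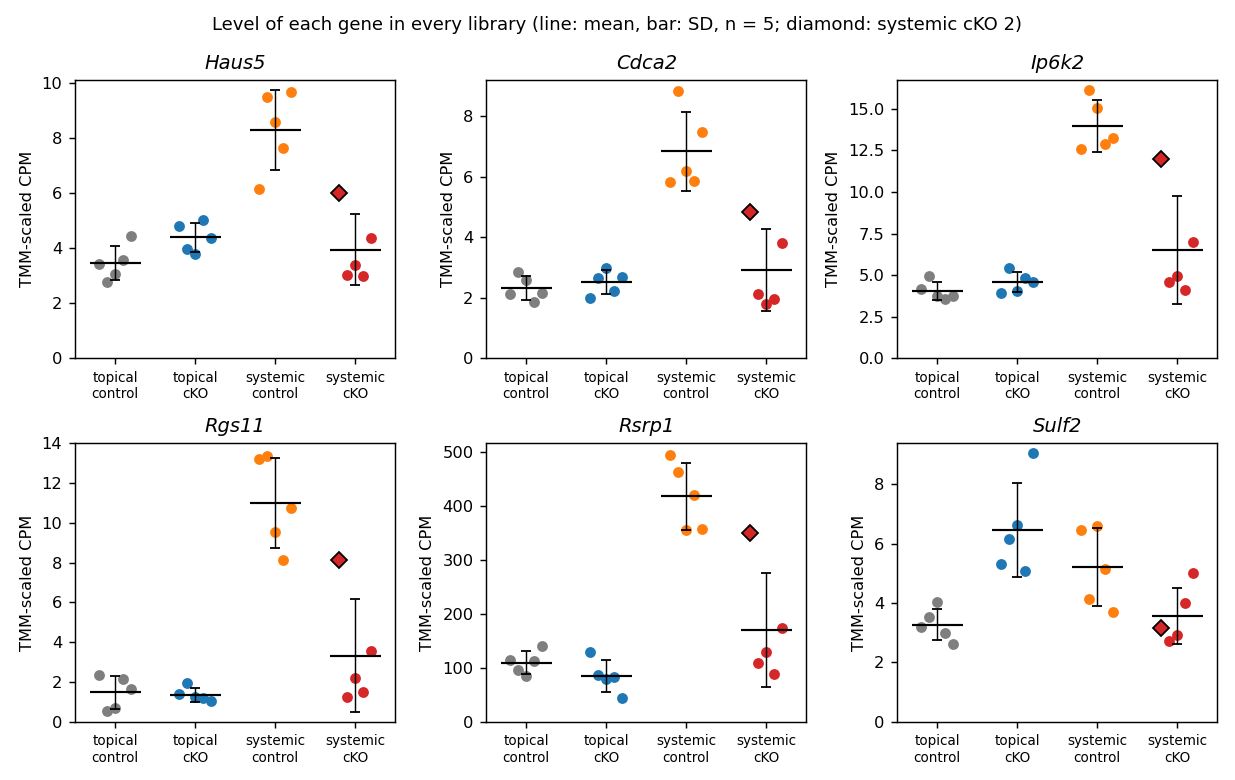
TMM-scaled CPM of each gene (linear axes from 0) in every library, by group, with the mean (line) and SD (bar) of 5 mice and systemic cKO 2 as a diamond. In 5 genes the diamond lies beside the systemic controls, for example at 349 CPM in Rsrp1, while Sulf2 is highest in topical cKO.

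For Haus5, Cdca2, Ip6k2, Rgs11 and Rsrp1 the group order by mean was not the same below the top. Systemic controls came first in each of the 5, and every systemic control was above the other 15 libraries. Lying above every systemic cKO was a condition of the choice, met by 114 of 12424 tested genes. Of these, 53 (0.427% of tested genes) lay above all 15 libraries. Systemic cKO came second in Cdca2, Ip6k2, Rgs11 and Rsrp1 and after topical cKO in Haus5. Neighbouring groups below the top overlapped in all 5 genes. For Sulf2 the order was topical cKO, systemic control, systemic cKO and topical control, and each neighbouring pair in that order overlapped.

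Between knockout and control after injection, the contrast that chose them, Rgs11 was lower by a log2 fold change of -1.79 (SE 0.41), Rsrp1 by -1.30 (SE 0.31), Cdca2 by -1.27 (SE 0.24), Ip6k2 by -1.12 (SE 0.22) and Haus5 by -1.10 (SE 0.19). Sulf2 had -0.55 (SE 0.21). Over all tested genes 1.89% were called in this contrast, 0.531% lower and 1.36% higher, at an adjusted p under 0.05 (edgeR quasi-likelihood test, Benjamini-Hochberg), and nothing is read from the members' place among them. Leaving out systemic cKO 2 gave -2.40 for Rgs11, -1.74 for Rsrp1, -1.52 for Cdca2, -1.44 for Ip6k2 and -1.28 for Haus5. A covariate that marks libraries over 50 satellite-like CPM, chosen after seeing the data, leaves systemic cKO 2 as the only knockout on the side of the 5 controls. The values, -0.44, -0.26, -0.50, -0.22 and -0.47 in the same order, are thus those of 1 library against the controls, and not adjusted effects of the group. Sulf2 was -0.52 without systemic cKO 2 and -0.70 with that covariate.

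At the edge of the choice, Cpeb1 was lower by -2.07 (SE 0.56) but missed the call, Flna was called with a change of -0.93, under the minimum of 1, and Zfp512b was called at -1.11 with groups that overlapped. In the interaction, Nop56 was the nearest gene outside the call, at -1.13 (SE 0.25). Just inside were Rsrp1, which had the highest adjusted p of the 5 chosen after injection (0.0296, edgeR), and Haus5, which had the smallest change of the 5.

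The interaction is the genotype effect after injection minus that after topical treatment. Haus5 had -1.445 (SE 0.28) and Sulf2 -1.52 (SE 0.30), and the other values were -1.38 for Cdca2, -1.30 for Ip6k2, -1.68 for Rgs11 and -0.92 for Rsrp1. In Sulf2 the 2 genotype effects were of opposite sign, 0.97 (SE 0.21) after topical treatment and -0.55 after injection. Of all tested genes, 0.0644% were called with a lower systemic effect. With the covariate for over 50 satellite-like CPM, where the systemic genotype effect again rests on systemic cKO 2 alone, the interaction was -1.67 for Sulf2, -0.82 for Haus5, -0.61 for Cdca2, -0.40 for Ip6k2, -0.32 for Rgs11 and 0.12 for Rsrp1.

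The topical comparison asks whether the deletion moved these genes when induced on the skin. It had no part in the choice of Cdca2, Ip6k2, Rgs11 and Rsrp1, and none of the 4 was called (edgeR quasi-likelihood test, adjusted p 0.997 for each, 16 of 12424 genes or 0.129% called). Cdca2 differed by 0.11 (SE 0.25, 95% interval -0.42 to 0.63), Ip6k2 by 0.18 (SE 0.22, -0.30 to 0.65), Rgs11 by -0.12 (SE 0.45, -1.08 to 0.85) and Rsrp1 by -0.37 (SE 0.30, -1.015 to 0.27). These intervals use 16 residual degrees of freedom. The interval is widest for Rgs11, which varied most among topical controls (coefficient of variation 56.8%). Missing the threshold does not show that a gene stayed level. The sign of Rgs11 turned to 0.12 without topical control 1 and to 0.028 without topical control 6. Haus5 had 0.35 (SE 0.20), given without a test because the interaction shaped its choice.

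The route comparisons set injected against topical mice of one genotype and share their systemic libraries with the choice of genes. In controls, Rgs11 was higher after injection by 2.89 (SE 0.43), Rsrp1 by 1.93 (SE 0.31), Ip6k2 by 1.79 (SE 0.22), Cdca2 by 1.57 (SE 0.24), Haus5 by 1.26 (SE 0.19) and Sulf2 by 0.66 (SE 0.21), where 10.2% of tested genes were called higher and 8.16% lower. In cKO the same genes had 1.21 (SE 0.44), 1.01 (SE 0.31), 0.48 (SE 0.22), 0.19 (SE 0.25), -0.19 (SE 0.20) and -0.86 (SE 0.21), where 9.22% of tested genes were called, 5.19% higher and 4.02% lower. Without systemic cKO 2 the values in cKO were 0.61 for Rgs11, 0.57 for Rsrp1, 0.17 for Ip6k2, -0.054 for Cdca2 and -0.37 for Haus5. Sulf2 was thus lower after injection in cKO and higher in controls.

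**Figure D2:**
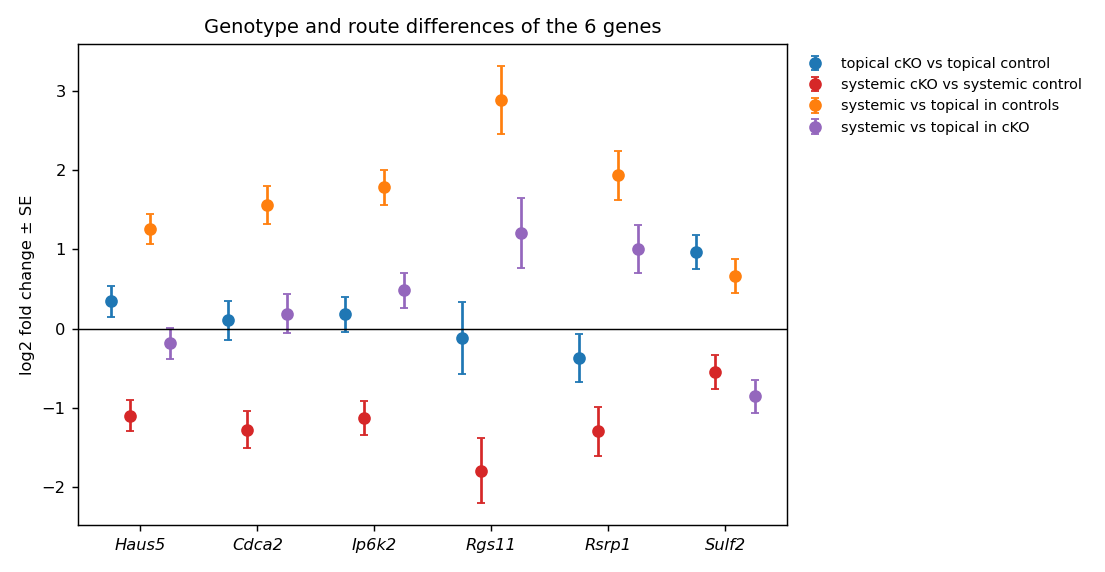
Log2 fold change with its SE for each gene in the topical and systemic genotype comparisons and the route comparisons within controls and within cKO. Rgs11 reaches 2.89 between routes in controls and -1.79 between genotypes after injection, and only Sulf2 has a topical genotype difference near 1 (0.97).

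The 6 libraries with over 50 satellite-like CPM also had the 6 highest levels of Haus5, Cdca2, Ip6k2, Rgs11 and Rsrp1. Rsrp1 ranged from 349 to 493.3 CPM in those 6 and from 44.5 to 173 CPM in the other 14, and Ip6k2 from 11.98 to 16.1 against 3.57 to 7.002 CPM. Rgs11 ranged from 8.10 to 13.4 against 0.526 to 3.56 CPM, Cdca2 from 4.84 to 8.84 against 1.79 to 3.81 CPM, and Haus5 from 5.99 to 9.67 against 2.79 to 5.03 CPM. Such a split was present in 1.63% of tested genes (203 of 12424). The place of the 5 systemic controls above the systemic cKO libraries was fixed by the choice of these genes. Sulf2 did not split this way, with 3.17 to 6.58 CPM in the 6 and 2.62 to 9.06 CPM in the 14. Among the systemic controls, number 1 had the least satellite-like RNA, 79.4 CPM, and number 3 the most, 11674 CPM. Systemic control 1 was the lowest of the 5 in Haus5, Cdca2 and Ip6k2 and the highest in Rsrp1. The part of these transcripts in the results was not tested, and since all 5 systemic controls are on one side, group and satellite level cannot be told apart among controls.

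**Figure D3:**
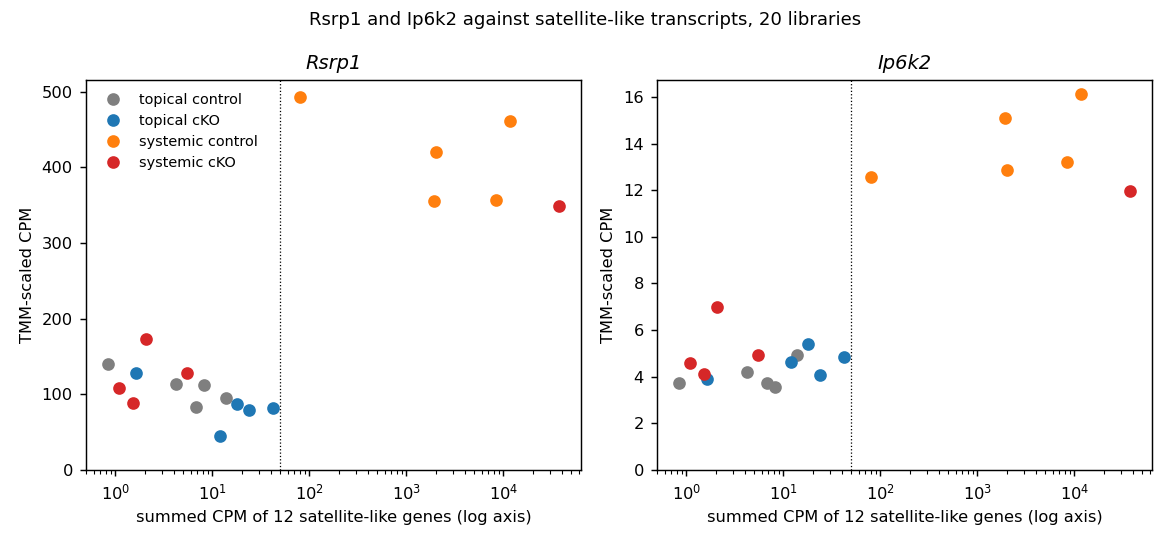
TMM-scaled CPM of Rsrp1 and Ip6k2 in 20 libraries against the summed CPM of 12 satellite-like genes (log axis), coloured by group, with a dotted line at 50 CPM. The 5 systemic controls and systemic cKO 2 lie right of the line and above all 14 other libraries.

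The genes were then compared with each other across libraries, as a description in which all values of a library share its depth and scaling. Over 20 libraries, the 10 pairs among Haus5, Cdca2, Ip6k2, Rgs11 and Rsrp1 had a Pearson r of log2 CPM between 0.805 and 0.950. After each group's mean was subtracted, r was 0.381 to 0.825, highest for Cdca2 with Ip6k2 and lowest for Cdca2 with Rgs11. Within the 14 libraries under 50 satellite-like CPM, it was -0.113 to 0.609, with a median of 0.169. There Cdca2 with Ip6k2 had 0.609 and Rgs11 with Rsrp1 0.566. Pairs with Sulf2 had r of -0.063 to 0.287 over 20 libraries.

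**Figure D4:**
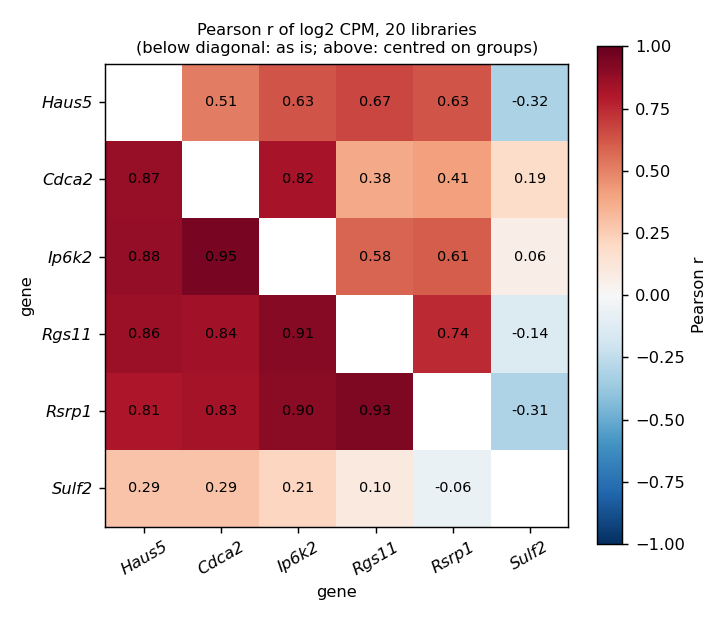
Pearson r of log2 CPM for each pair of genes over 20 libraries, as measured below the diagonal and after subtraction of group means above it. The lowest r below the diagonal without Sulf2 is 0.805, and all Sulf2 cells there are at or under 0.287.

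Genes with the most similar profiles were sought among 11584 named tested genes by Pearson r over the 20 libraries. For Rsrp1 these were Pwwp3a (r = 0.960), Nrbp2 (0.935) and Rps6kb2 (0.924). Rgs11 was closest to Ppcdc (0.960), Rps6kb2 (0.954) and Ccdc17 (0.949), and Ip6k2 to Leng8 (0.963), Ccdc17 (0.962) and Ccnl2 (0.961). Cdca2 was closest to Mettl23 (0.941), Hook2 (0.933) and Leng8 (0.930), and Haus5 to Nop56 (0.937), Echdc2 (0.936) and Hook2 (0.923). Between 140 and 261 genes of the 11584 exceeded r = 0.8 with each of these 5 genes. No gene exceeded 0.8 with Sulf2, whose nearest were Palld (0.721), Bloc1s2 (0.707) and the interferon regulatory factor Irf7 (0.704).

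Among the 14 libraries alone, r with Rgs11 was 0.887 for Ppcdc, and r with Rsrp1 was 0.850 for Pwwp3a, while that of Hook2 with Cdca2 was 0.355. Opposite to the mean profile of the 6 genes ran Laptm4a (r = -0.956), Ociad1 (-0.951), the small GTPase gene Rhoa (-0.946), Rraga (-0.945) and Vdac1 (-0.945), a channel of the outer mitochondrial membrane. Vdac1 averaged 64.7 CPM in systemic controls and 187 to 294 CPM in the other groups.

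Related genes were taken from lists by function, each without the 6 genes themselves, to see whether partners changed alongside them. Of the augmin subunits Haus1, Haus2, Haus3, Haus4, Haus6, Haus7 and Haus8, none was called in the systemic genotype comparison or between routes in controls (edgeR quasi-likelihood test). Over all tested genes 1.89% and 18.3% were called there, so the lack of calls in so short a list says little. Their median log2 fold change between routes in controls was -0.020, beside 0.00081 over all genes, and the highest was 0.097 in Haus8. In cKO, Haus4 was lower after injection by -0.73 (adjusted p 0.0312), from 7.46 ± 2.54 to 4.52 ± 0.894 CPM (SD, n = 5 each). There 4.02% of all tested genes were called lower.

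Of 14 genes of the gamma-tubulin ring complex and its recruitment, 4 were higher and 1 lower after injection in controls, with a median of 0.12, in a comparison where 10.2% of all tested genes were higher and 8.16% lower. Akap9, a scaffold at centrosome and Golgi, rose by 0.95 (SE 0.22, adjusted p 0.00569) and the ring subunit gene Tubgcp6 by 0.54 (adjusted p 0.00545), both by the edgeR test. None of the 14 was called between genotypes after injection. Mitosis genes (30 tested) had 0 higher and 1 lower between routes in controls, with a median of -0.12. The lower one was Cdk1, the mitotic kinase, at -0.64 (adjusted p 0.0183), from 12.9 ± 2.60 to 8.22 ± 1.33 CPM (SD, n = 5 each). Among 17 genes of protein phosphatase 1 and mitotic chromatin, Ppp1cb and Ppp1r8 were lower there, by -0.65 and -0.79, and 0 were higher. Between routes in cKO, Ppp1r10 was called higher (1.30) and Ppp1r8 lower (-0.53), where 5.19% and 4.02% of all tested genes were called.

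Inositol phosphate genes (15 tested) moved in both directions between routes in controls, 3 higher and 3 lower, with a median of 0.046. Of all tested genes 10.2% were called higher there and 8.16% lower. Ip6k1, the close relative of Ip6k2, rose by 1.59 (SE 0.36, adjusted p 0.00491), from 18.5 ± 4.14 CPM in topical controls to 55.5 ± 17.7 CPM in systemic controls (SD, n = 5 each). Systemic cKO had 25.2 ± 16.4 CPM, a difference from systemic controls of -1.15 that was not called (adjusted p 0.104). Ipmk, the inositol polyphosphate multikinase, rose by 1.09 (adjusted p 0.00239) and Ppip5k1, which makes pyrophosphates from the Ip6k products, by 1.01 (adjusted p 0.0140). Nudt3, a phosphatase that removes such pyrophosphates, fell by 1.015 on the log2 scale (adjusted p 0.00551), as did Minpp1 by 0.55 and Nudt4 by 0.60. Ip6k3 was scarce, between 0.341 and 0.621 CPM in the group means, and was not called. Between routes in cKO, Itpkb was called higher (1.575) and Nudt4 lower (-0.72), where 5.19% and 4.02% of all tested genes were called.

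In the R7 family and its partners, 2 of 8 genes passed the filter. Rgs6 and Rgs7 did not pass the filter, with group means of at most 0.0723 CPM, and Rgs9 was at 0.880 to 1.69 CPM with no call in any contrast. Gnb5, the obligate partner, was at 1.44 to 2.44 CPM and was not called either. Of 9 other tested genes of the wider family, none was called between genotypes, and Axin2, a Wnt feedback gene, was higher after injection in cKO by 0.77 (adjusted p 0.0133). Over all tested genes 0.129% were called between genotypes after topical treatment and 1.89% after injection, and 5.19% were called higher between routes in cKO.

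Around Sulf2, 18 genes of heparan sulfate synthesis and editing had 0 calls between genotypes under either route. Of all tested genes 0.129% were called after topical treatment and 1.89% after injection, so 0 calls say little about this list. Between routes in controls 10.2% of all tested genes were called higher and 8.16% lower. In that comparison Xylt1, which starts the chain, was higher by 1.38 (SE 0.46, adjusted p 0.0393) and Sumf1, which activates sulfatases, lower by -0.43 (adjusted p 0.0435). Of 12 proteoglycan core genes, Agrn rose by 1.24 (SE 0.16, adjusted p 5.09e-05), from 34.1 ± 2.42 to 80.5 ± 18.1 CPM (SD, n = 5 each), and Gpc1 fell by 0.75 (adjusted p 0.0360). Between routes in cKO, Hs3st6 and Sumf2 of the heparan sulfate list were called higher, by 0.87 and 0.55. Agrn was higher there by 0.71 and Gpc1 lower by -0.96, where 5.19% of all tested genes were called higher and 4.02% lower.

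A list named for detained introns, that is introns kept in polyadenylated RNA that stays in the nucleus, was the one in which most genes were called. Rsrp1 belongs to it and was set aside, and 31 of the other 36 genes were tested. The rest of the list, Malat1, Neat1, Snhg1, Snhg12 and Meg3, was not found in the count table. After injection in controls, 24 of the 31 were higher and 0 lower, with a median log2 fold change of 0.91. Over all tested genes 10.2% were called higher, 8.16% lower, and the median was 0.00081. Ccnl2, a cyclin of RNA processing, rose by 1.80 (SE 0.25, adjusted p 1.14e-04), from 34.2 ± 3.60 to 119 ± 22.6 CPM (SD, n = 5 each). The splicing factor genes Srsf7 and Rbm39 rose by 1.14 and 1.16, the splicing kinase gene Clk1 by 1.12, Pnisr by 2.01 and Srrm2, a protein of nuclear speckles, by 1.47, with adjusted p of 1.34e-04 to 0.00114 (edgeR quasi-likelihood test). Without systemic control 3, 17 of the 31 were called, and with the covariate for over 50 satellite-like CPM 0 were, with a median of 0.36; among controls this covariate is the same split as the route, so that fit rests on systemic cKO 2 to separate them.

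In cKO, 4 of these 31 genes were called higher after injection and 0 lower, with a median of 0.31, where 5.19% of all tested genes were called higher. Clk1 rose by 1.39 (SE 0.18, adjusted p 5.22e-05), Ccnl1 by 1.196, Clk4 by 0.64 and Rbm5 by 0.55. Between genotypes after injection 4 were lower and 0 higher (0.531% and 1.36% of all tested genes), with a median of -0.39 beside -0.0045 over all genes. These were Srsf2 (-1.34, adjusted p 0.0382), Arglu1 (-1.30, adjusted p 0.0425), Ccnl2 (-0.98, adjusted p 0.0425) and Srsf7 (-0.69, adjusted p 0.0284). Clk1 was not called there, at -0.094 (SE 0.17, adjusted p 0.858), with 233 ± 18.9 CPM in systemic controls and 219 ± 48.9 CPM in systemic cKO. The count of 4 was 10 without systemic cKO 2 and 15 with percent mitochondrial counts as a covariate. It was 0 without systemic cKO 4, 5 or 6 or systemic control 3, 4 or 5. It was also 0 in a fit of the systemic libraries alone, and with the log2 of satellite-like CPM as a covariate. After topical treatment 0 of the 31 were called, with a median of 0.040, where 0.129% of all tested genes were called.

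**Figure D5:**
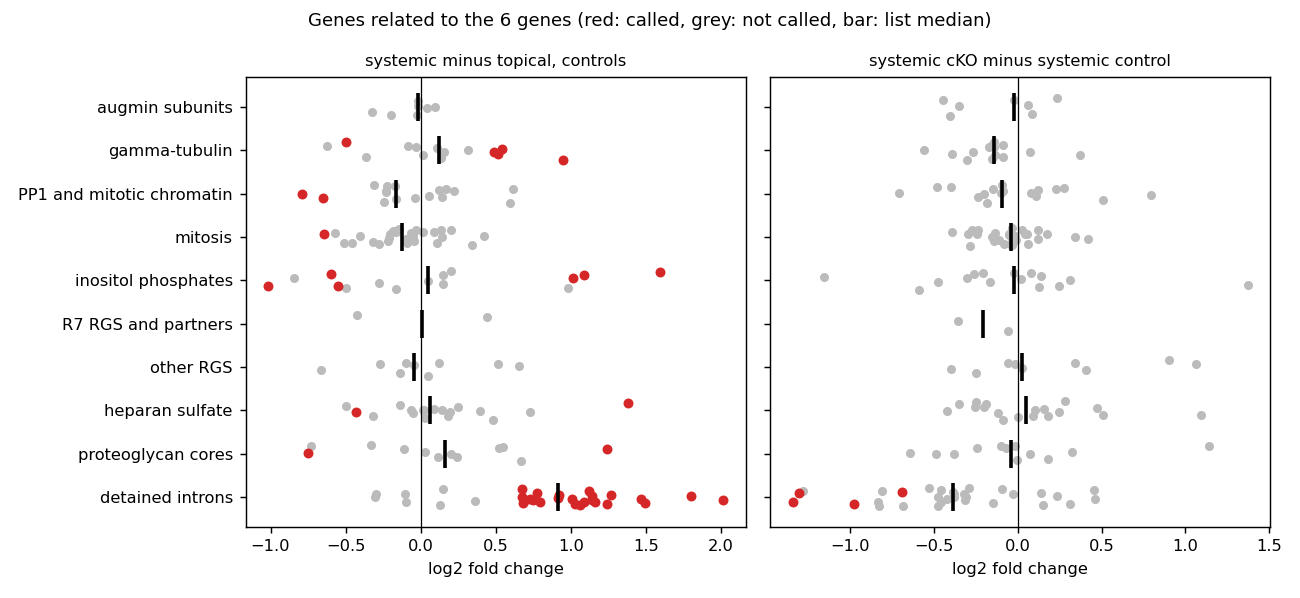
Log2 fold changes of tested genes in 10 lists related to the 6 genes, between routes in controls (left) and between genotypes after injection (right), with called genes in red, others in grey and list medians as bars. The detained-intron list has a median of 0.91 on the left and -0.39 on the right, while augmin subunits stay at -0.020 and -0.022.

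Models with a retained intron were also counted over all tested genes, a grouping chosen after the data were seen. Of 7013 such genes, 12.7% were called higher and 7.41% lower after injection in controls. Of 5386 genes without one, 6.76% were higher and 9.13% lower. Between genotypes after injection, 0.741% of genes with such a model and 0.167% of those without were called lower, and 1.08% and 1.73% higher. Between routes in cKO, 4.81% with and 5.66% without were called higher, and 3.76% and 4.36% lower. After topical treatment no gene of either kind was called lower.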

How the data were processed

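Keratinocytes of 20 mice were profiled by bulk RNA-seq (SmartSeq II libraries, per the labels). The authors deposited raw read counts per gene without normalization, 1 column per mouse; STAR, featureCounts and build GRCm38 (mm10) are named in the submitters' processing notes, and their versions and the annotation release are not given in the sources used here. Groups were read from the sample titles.

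All libraries were fitted with edgeR 4.0.16 in R 4.3.3 (TMM, filterByExpr with a minimum count of 10 and a total of 15, robust quasi-likelihood, 1 coefficient per group). Two-sided p-values were adjusted by Benjamini-Hochberg over 12424 genes, with calls made below an adjusted p of 0.05. Log2 CPM for correlations used a prior count of 2. Totals of 11.6 to 50.1 M counts set the counting error, and 25614 identifiers were found in GENCODE M21. On simulated data of the topical comparison (12424 genes, 200 of them changed by a log2 fold change of 1.5), 174 changed and 8 unchanged genes were called.

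The members, the lists of related genes and the alternatives were chosen with earlier results of these data known. Named from lists were called genes with the smallest adjusted p, at most 6 per list and comparison and often fewer, and the closest family members. Named as most alike were the 3 genes with the highest r per gene, and for the mean profile the 5 most opposite, predicted genes left out. Genes at the edge of the choice and neighbouring genes were named after their values were seen. Alternatives were DESeq2 1.42.0 (size factors and Wald test), other filters, covariates, a replicate block, fewer libraries and leaving out each library.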

Additional observations from a re-analysis of the deposited data

Results flagged for a closer look

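In the fit of all libraries the interaction of genotype and route was called for Haus5 (-1.445) and Sulf2 (-1.521). The same values served to choose both genes, so they are no independent evidence. Neither was called by edgeR with the replicate block (adjusted p 0.0561 and 0.0812) or with either satellite-like covariate. Leaving out single libraries gave an adjusted p of up to 0.0612 for Haus5 and 0.0791 for Sulf2, both without systemic cKO 5. Haus5 was -0.82 with the over-50 covariate, which rests on systemic cKO 2. In Sulf2 the effects had opposite signs, and in Haus5 the topical effect was small beside the systemic one. Among 24 sets of 5 libraries (6 genes in 4 groups), a gap-to-range test with a critical value of 0.71 for 5 samples flagged no library. With 5 values per set it can flag only a wide gap, so it does not show that systemic cKO 2 was like the other 4. For Rsrp1, systemic cKO 2 was at 349 CPM and the other 4 at 89.1 to 173 CPM. The systemic sets also served to choose the genes.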

How the results depend on the processing

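The number of genes called depended on the processing more than the members' directions did. After topical treatment 16 genes were called, against 42 with the DESeq2 Wald test, 9 with a replicate block and 10 to 19 when each library was left out. After injection 235 were called, against 559 with the Wald test, 35 in a fit of the systemic libraries alone (35 higher and 0 lower, with Haus5, Cdca2, Ip6k2, Rgs11 and Rsrp1 at edgeR adjusted p of 0.059 to 0.134), 1320 with percent mitochondrial counts as a covariate (677 higher and 643 lower, against 169 and 66), and 81 to 787 with a library left out. The interaction called 31, against 321 with the Wald test, 49 with a mean of at least 5 CPM, 49 with sex as a covariate, 364 with the mitochondrial covariate, 0 with the replicate block and 16 to 470 with a library left out. Between routes in controls 2277 were called, against 3496 with the mitochondrial covariate and 1463 to 2524 with a library left out; in cKO 1145 were called, and 746 to 1218 with a library left out.

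With a covariate for over 50 satellite-like CPM, or its log2 level, the edgeR test called 0 and 0 genes after injection (263 and 572 at an unadjusted p under 0.05), 0 and 0 in the interaction (306 and 555; 1632 with the block) and 1 and 118 between routes in controls. With the over-50 covariate the systemic genotype effect compares systemic cKO 2 alone with the 5 controls, so few calls follow from its construction. Signs of member values changed after topical treatment, where Cdca2 was -0.013 with the replicate block and Rgs11 0.12 without topical control 1 and 0.028 without topical control 6 (-0.34 to 0.12 with a library left out). Signs changed elsewhere too: the Rsrp1 interaction was 0.12 with the over-50 covariate, and Cdca2 between routes in cKO was -0.054 without systemic cKO 2 and -0.056 with that covariate. The replicate numbers were not taken as pairs: correlations of same-numbered deviations ran from -0.145 to 0.338 over 3 topical pairs and from -0.018 to 0.241 over 3 systemic pairs, with 1 of 3 in each best with its own number; topical cKO with systemic control had -0.179 to 0.512 and 2 of 3, and no pair of groups had every correlation over 0.1. Low counts limit Rgs11 and Cdca2.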
